A study of Homo sapiens with 9 samples.

Results

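The comparison is between the Jurkat-EZH2-KO2 line (KO2) and the unedited Jurkat-EZH2-WT line (WT), each measured in 3 RNA libraries, so that 6 of the 9 libraries of the series belong to it. Both groups were chosen by the sample titles, and all 26190 of the 26228 gene rows that hold numeric values were used. Jurkat is a widely used human cell line from T-cell acute lymphoblastic leukaemia. WT is its unedited form, KO2 was edited at EZH2 with CRISPR/Cas9, and KO1, a second edited line with 3 libraries, serves here to show where KO2 stands apart. All were growing exponentially in complete RPMI with 10% FBS and 1% Pen/Strep, with no treatment named. RNA came from a column kit, and 500 ng of total RNA per sample went into libraries of polyadenylated RNA. The submitters call the 3 libraries of a group biological triplicates. KO2 is a single edited line; the labels do not say whether it is a clone, or whether WT cells went through a mock edit. The p-values below therefore measure the spread between cultures of these lines, not between independent edits.

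Polycomb repressive complex 2 (PRC2) trimethylates lysine 27 of histone H3, a mark of silenced genes, and EZH2 is its main catalytic subunit. The complex keeps developmental genes with CpG-rich promoters silent, and PRC1, a second Polycomb complex, can bind the mark. In T-cell acute lymphoblastic leukaemia the genes of PRC2 are recurrently lost or mutated. Levels are FPKM, a count of fragments scaled to transcript length and library size, and changes are log2 fold changes of FPKM + 1 from limma with standard errors (SE), a scale that understates changes of weakly expressed genes. A gene was called when its Benjamini-Hochberg adjusted p was under 0.05. Means are given ± SD over 3 libraries.

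EZH2 itself stood at 74.4, 77.6 and 79.5 FPKM in WT and 87.9, 89.9 and 90.7 FPKM in KO2. All KO2 libraries were above all WT libraries (log2 fold change 0.21 ± 0.04, adjusted p = 0.000541), and KO1 was higher still, at 108, 107 and 103 FPKM. A whole-transcript level does not check an edit, so each direction below rests on the sample labels. The sum of FPKM ran from 417737 to 439704 per library, 11028 to 11415 genes reached 1 FPKM, and depth in reads is unknown. The highest sum was that of KO2 replicate 1. There the small RNA SNORD49B stood at 10219 FPKM, and it was listed at 0 in the other 8 libraries. Without KO2 replicate 1, 6968 genes were called in place of 7596. Leaving out KO2 replicate 2 instead gave 7003, and leaving out KO2 replicate 3 gave 6869. T-cell markers were present: the 8 listed genes summed to 1441 to 1525 FPKM in WT and 1476 to 1508 in KO2, with CD3D at 493 ± 31 to 491 ± 10.4 FPKM. The sum hides moves both ways: 3 of the 8 were called higher and 3 lower, 1 of the latter by at least 2-fold. Summed levels of the other marker lists were 29.2 to 33.5 FPKM in WT and 21.3 to 25 in KO2 for B cells, most of it CD79A, with PAX5 listed at 0 in every library. Myeloid markers summed to 2.79 to 3.65 FPKM in WT and 2.13 to 2.87 in KO2, erythroid markers to 3.57 to 4.69 and 2.05 to 2.67, and epithelial markers to at most 0.150. Fibroblast markers summed to 7.44 to 8.59 and 17.4 to 18.8 FPKM, most of it THY1, which T cells can also carry, while COL3A1, DCN and LUM were listed at 0.

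Most of the transcriptome differed between KO2 and WT, mainly by small amounts. Of 11737 genes tested, 64.7% were called: 4476 (38.1%) higher and 3120 (26.6%) lower in KO2. A change of at least 2-fold was called for 457 genes (3.89%) that rose and 253 (2.16%) that fell, and 4688 of the 7596 calls were smaller than 0.5 on the log2 scale. After quantile normalization the 2-fold calls were 321 higher and 319 lower, and with a pseudocount of 0.1 in place of 1 they were 831 and 401. Of the tested genes, 4731 had all KO2 libraries above all WT libraries and 3386 had them all below, so a lack of overlap was common. The median over all tested genes was 0.06, with the 5th and 95th percentiles at -0.70 and 0.91. These shares are the background against which the counts in each gene list are read.

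**Figure D1:**
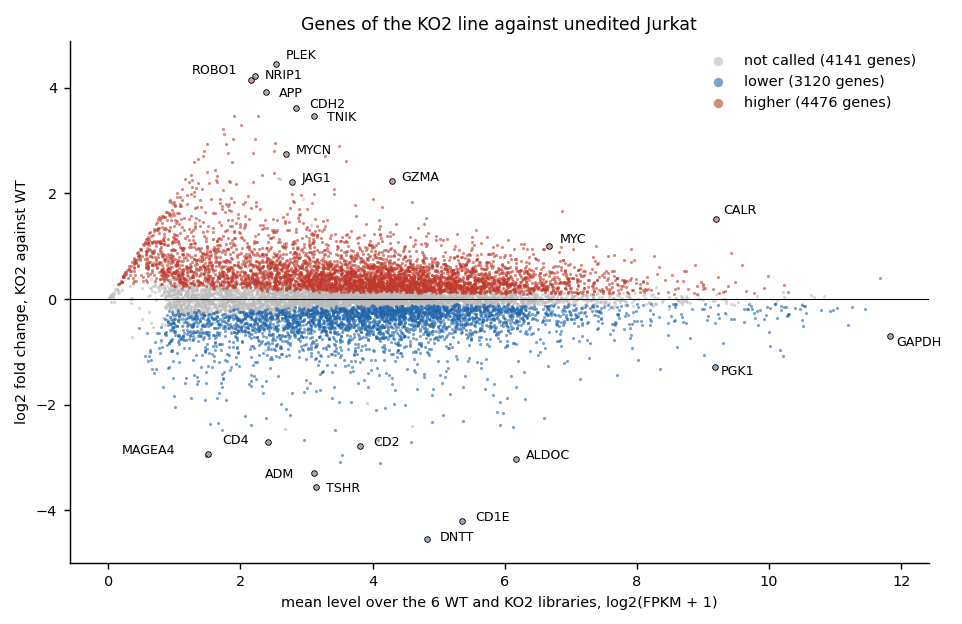
Each point is a tested gene, with its mean log2(FPKM + 1) over the 6 WT and KO2 libraries on the horizontal axis and its log2 fold change in KO2 against WT on the vertical axis. The 4476 genes called higher are red, the 3120 called lower blue and the rest grey; PLEK (4.44) and DNTT (-4.54) mark the ends among the genes named.

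The largest rises were of genes close to silence in WT. PLEK, which encodes pleckstrin, a protein kinase C substrate of blood cells, stood at 0.262, 0.273 and 0.213 FPKM in WT and 26.0, 25.5 and 26.9 FPKM in KO2 (log2 fold change 4.44 ± 0.06, adjusted p = 1.11e-11). NRIP1, a corepressor of nuclear receptors, stood at 0.0189, 0.0441 and 0.177 FPKM in WT and 19.1, 18.2 and 19.7 FPKM in KO2 (log2 fold change 4.21 ± 0.08, adjusted p = 1.26e-10). ROBO1, a receptor of the axon guidance protein SLIT, stood at 0, 0 and 0.186 FPKM in WT and 17.8, 17.4 and 18.4 FPKM in KO2 (log2 fold change 4.15 ± 0.07, adjusted p = 9.88e-11). In these 3 genes every WT library was under 1 FPKM and every KO2 library above 17. APP, the amyloid precursor, stood at 0.344, 0.234 and 0.453 FPKM in WT and 19.1, 19.7 and 19.1 FPKM in KO2 (3.92), and CDH2, the neural cadherin, at 1.16, 0.797 and 1.17 FPKM in WT and 23.7, 24.1 and 24.6 FPKM in KO2 (3.63). TNIK, a kinase that binds TCF factors of the WNT pathway, stood at 1.04, 1.75 and 2.16 FPKM in WT and 26.6, 28.6 and 28.2 FPKM in KO2 (3.47). CCND2, cyclin D2, which drives entry into the cell cycle, stood at 0.396, 0.359 and 0.592 FPKM in WT and 15.1, 14.7 and 15 FPKM in KO2 (3.46). The largest rises were chosen among called genes whose WT and KO2 libraries did not overlap, so the lack of overlap restates that choice. Genes under 1 FPKM in every WT library passed the filter only through the edited lines. The 15 largest rises also held the amino acid exchanger SLC7A8 (0.135 to 11.5 FPKM), the corepressor CTBP2 (0.283 to 11.6 FPKM), the serpin SERPINB2 (0.0937 to 9.21 FPKM) and the RNA-binding IGF2BP2 (0.147 to 8.90 FPKM). Also among them were the fatty acid transporter SLC27A2 (0.640 to 12.4 FPKM), the ephrin receptor EPHA3 (0.305 to 9.61 FPKM) and the transcription factor DACH1 (0.0213 to 6.84 FPKM), and these last 3 had log2 fold changes from 2.94 to 3.03.

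In all, 119 genes lay under 1 FPKM in every WT library and at 2 FPKM or more in every KO2 library, and each was called, as the rule nearly requires. Tested against KO1, 68 of the 119 were lower in KO2 and 15 higher, beside 12.4% lower and 18.3% higher over all tested genes. The KO2 minus KO1 difference on the log2 scale was -0.38 for NRIP1, -0.80 for ROBO1, -1.14 for CDH2 and -1.90 for APP, with KO1 at 72.4, 74.3 and 77.9 FPKM for APP. PLEK (1.18) and SERPINB2 (0.94) were higher in KO2, while TNIK (-0.08) and DACH1 (-0.18) were not called between the edited lines. Another gene that came on was PTPRG, a receptor tyrosine phosphatase, from 0.255 to 8.54 FPKM. In the other direction 27 genes went from at least 2 FPKM in every WT library to under 1 FPKM in every KO2 library. Among these were the immediate early factor EGR1 (5.56 ± 0.105 to 0.291 ± 0.190 FPKM), the PI3-kinase inhibitor PIK3IP1 (3.55 ± 0.0370 to 0.253 ± 0.155 FPKM), the adhesion G-protein-coupled receptor ADGRG1 (5.71 ± 0.601 to 0.784 ± 0.0199 FPKM), the photoreceptor cadherin CDHR1 (6.14 ± 0.176 to 0.401 ± 0.0311 FPKM) and GCSAM (6.79 ± 0.370 to 0.389 ± 0.0125 FPKM).

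**Figure D2:**
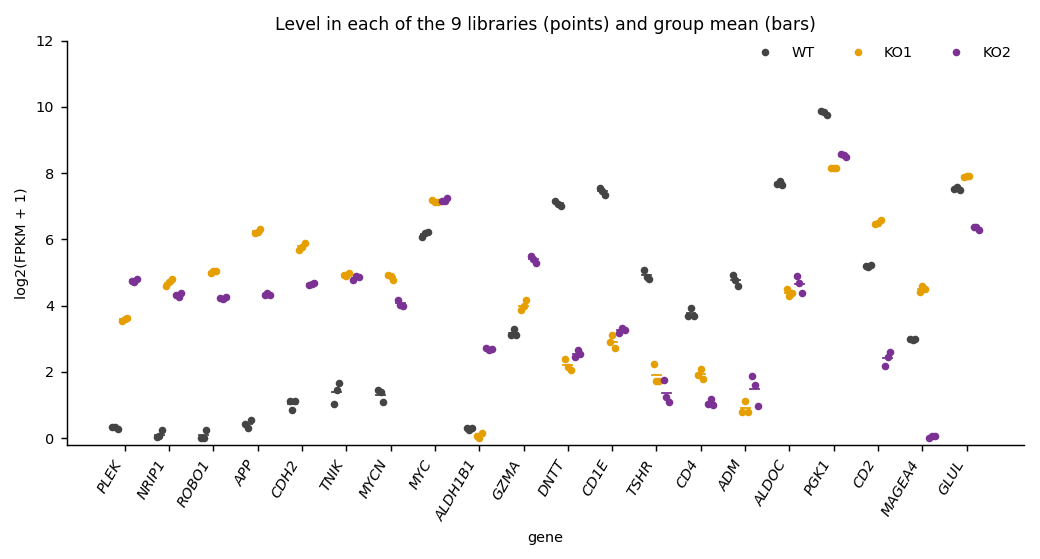
Log2(FPKM + 1) of 20 named genes in each library: grey WT, orange KO1, purple KO2, with a point per library and a bar at the group mean. PLEK, NRIP1 and ROBO1 lie near 0 in WT and above 4 in KO2, and CD2 and MAGEA4 are lower in KO2 than in WT while higher in KO1.

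Promoters of a pair of genes that came on and a pair from the largest falls are shown because Polycomb silencing is tied to CpG-rich promoters. DNTT and CD1E stayed above 2 FPKM in every KO2 library, so they are not among the genes that went off. They are RefSeq sequence on GRCh38.p14, from 250 bases before to 50 after the annotated start, 5′ to 3′ on the gene's strand, with each CG in capitals; the files themselves use hg19. NRIP1 lies at chr21:15065887-15066186, minus strand, with 14 CG; ROBO1 at chr3:79767949-79768248, minus strand, with 11; DNTT at chr10:96304184-96304483, plus strand, with 3; and CD1E at chr1:158353644-158353943, plus strand, with 4.
NRIP1: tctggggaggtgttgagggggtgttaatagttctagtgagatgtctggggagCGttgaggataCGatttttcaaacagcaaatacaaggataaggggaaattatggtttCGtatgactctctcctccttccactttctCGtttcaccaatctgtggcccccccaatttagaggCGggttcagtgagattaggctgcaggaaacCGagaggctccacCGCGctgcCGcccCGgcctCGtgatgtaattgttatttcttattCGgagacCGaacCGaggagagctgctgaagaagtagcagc
ROBO1: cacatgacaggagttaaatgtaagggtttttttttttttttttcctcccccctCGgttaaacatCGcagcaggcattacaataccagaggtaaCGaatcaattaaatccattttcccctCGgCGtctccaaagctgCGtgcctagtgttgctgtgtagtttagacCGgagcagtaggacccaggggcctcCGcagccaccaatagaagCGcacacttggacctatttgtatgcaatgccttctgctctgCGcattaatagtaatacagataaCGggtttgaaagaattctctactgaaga
DNTT: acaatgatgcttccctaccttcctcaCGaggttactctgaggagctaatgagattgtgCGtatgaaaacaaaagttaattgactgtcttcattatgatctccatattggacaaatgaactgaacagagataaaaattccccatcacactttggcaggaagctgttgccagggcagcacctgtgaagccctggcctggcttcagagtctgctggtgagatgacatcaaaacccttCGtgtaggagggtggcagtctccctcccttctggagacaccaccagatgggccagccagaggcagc
CD1E: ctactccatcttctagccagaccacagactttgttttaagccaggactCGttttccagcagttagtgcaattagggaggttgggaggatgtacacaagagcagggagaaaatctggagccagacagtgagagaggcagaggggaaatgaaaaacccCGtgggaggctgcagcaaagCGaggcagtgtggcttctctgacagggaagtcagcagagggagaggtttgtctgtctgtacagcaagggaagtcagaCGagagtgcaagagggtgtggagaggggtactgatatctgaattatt

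Across sets, the median number of CG in this window was 27 for the 96 genes with a promoter in the table among the 119 that came on. It was also 27 over 9431 tested genes, and 8 over 7725 genes under 1 FPKM in all WT and KO2 libraries. The 20 promoters of genes that went off had a median of 13. Among genes called with a change of at least 2-fold, it was 26 for 356 promoters of higher genes and 23 for 201 of lower genes. DNTT and CD1E lie far below the median of the genes that fell, so the pair shown does not stand for them. The genes that came on thus had as many CG as expressed genes at large, and more than genes silent in both lines; NRIP1 and ROBO1 lie below the median of their own set.

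Genes of early T-cell development were among the largest falls. DNTT, the terminal transferase that adds bases to rearranging receptor genes, stood at 142, 134 and 129 FPKM in WT and 4.48, 5.31 and 4.79 FPKM in KO2 (log2 fold change -4.54 ± 0.09, adjusted p = 1.26e-10). CD1E, a member of the CD1 family of cortical thymocytes, stood at 186, 174 and 162 FPKM in WT and 7.94, 9.11 and 8.60 FPKM in KO2 (log2 fold change -4.19 ± 0.09, adjusted p = 1.98e-10). CD1A (60.03 ± 2.02 to 8.36 ± 0.831 FPKM), CD1C (18.7 ± 1.23 to 2.09 ± 0.0992 FPKM), CD1B (31.9 ± 0.358 to 10.7 ± 1.08 FPKM) and CD1D (6.40 ± 0.427 to 4.94 ± 0.125 FPKM) fell too. All 5 CD1 genes were called lower, with a median of -2.67. These genes resemble each other in sequence and may share reads. CD4, the coreceptor for class II molecules, stood at 11.8, 14.4 and 11.8 FPKM in WT and 1.06, 1.25 and 0.995 FPKM in KO2 (log2 fold change -2.7 ± 0.10, adjusted p = 8.76e-09). MAL, a membrane-trafficking protein of T cells, went from 49.8 ± 6.89 to 4.90 ± 0.517 FPKM and TSHR, the thyrotropin receptor, from 29.4 ± 3.0 to 1.64 ± 0.674 FPKM. Of the 15 largest falls, 5 were CD1 genes, DNTT or CD4, and others were hypoxia genes given below, CD2, MAGEA4 and C10orf107 (-2.95).

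Of the 18 tested genes for the CD3 complex, coreceptors and the pre-T-cell receptor, 10 fell and 5 rose, with a median of -0.56 against 0.06 over all genes. CD28, the main costimulatory receptor, went from 35.4 ± 0.483 to 13.5 ± 0.481 FPKM and CD5, a damper of receptor signalling, went from 34.9 ± 2.45 to 18.7 ± 0.764 FPKM. The CD3 chains held their levels or rose slightly: CD3E went from 365 ± 11.3 to 423 ± 10.9 FPKM and CD3G from 146 ± 8.35 to 174 ± 6.94 FPKM, and CD3D did not pass (adjusted p = 0.958). CD40LG, the CD40 ligand, rose from 7.30 ± 0.673 to 16.7 ± 0.573 FPKM and CD7 from 49.7 ± 5.09 to 89.0 ± 1.18 FPKM. Of 36 genes of proximal receptor signalling, 22 fell and 9 rose. The adaptor FYB stood at 174, 159 and 149 FPKM in WT and 31.7, 27.9 and 27.7 FPKM in KO2 (-2.43), with every KO2 library far under WT. RASGRP1, the exchange factor that activates RAS, went from 44.8 ± 2.49 to 15.4 ± 1.49 FPKM, and the kinases FYN (62.5 ± 1.08 to 40.7 ± 0.240 FPKM) and LCK (284 ± 5.33 to 213 ± 6.37 FPKM) fell by less. In bulk RNA, fewer cells carrying a transcript and less transcript per cell cannot be told apart.

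Among 35 tested T-lineage transcription factors, 17 rose and 9 fell. ID1 and ID3, which block E proteins, rose from 1.12 ± 0.109 to 8.89 ± 0.927 FPKM and from 10.3 ± 1.17 to 25.8 ± 2.0 FPKM. EOMES, the T-box factor of memory and cytotoxic T cells, stood at 1.31, 0.757 and 0.923 FPKM in WT and 4.83, 5.85 and 5.55 FPKM in KO2 (log2 fold change 1.69 ± 0.11, adjusted p = 4.32e-07), and ETS2 rose from 31.6 ± 0.552 to 60.7 ± 1.6 FPKM. LEF1 (262 ± 2.02 to 153 ± 2.71 FPKM) and TOX (70.3 ± 2.32 to 38.3 ± 1.0 FPKM), factors of thymocyte maturation, fell. TAL1, an oncogene of T-cell leukaemia that Jurkat expresses, changed little (-0.15), and RUNX1 did not pass (-0.01, adjusted p = 0.829).

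Of 23 listed cytotoxic and natural killer genes 11 were tested, 9 rose, 0 fell and 2 were not called. GZMA, a granule protease, stood at 7.62, 8.83 and 7.68 FPKM in WT and 44.2, 41.8 and 38.4 FPKM in KO2. CTSW, a cathepsin of cytotoxic cells, stood at 6.88, 7.43 and 7.79 FPKM in WT and 29.1, 31.8 and 29.3 FPKM in KO2, and NCAM1, the adhesion molecule CD56, at 0.0482, 0.0422 and 0.183 FPKM in WT and 3.91, 4.33 and 3.85 FPKM in KO2. No KO2 library overlapped WT in these 3 genes. GZMK went from 0.0272 ± 0.0472 to 1.6 ± 0.574 FPKM and CST7, a protease inhibitor, from 7.68 ± 0.466 to 14.4 ± 1.14 FPKM. Since some of these genes passed the filter only through the edited lines, the count is a description.

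For cytokine receptors and their JAK and STAT partners the calls were split, with 10 of 27 higher and 9 lower. IL7R, the receptor for interleukin 7, stood at 12.1, 11.8 and 11.2 FPKM in WT and 2.60, 2.62 and 2.87 FPKM in KO2; KO2 lay between WT and KO1 (0.840, 1.11 and 1.04 FPKM). KIT, the stem cell factor receptor, rose from 1.61 ± 0.289 to 5.82 ± 0.655 FPKM and JAK3 from 1.5 ± 0.106 to 4.41 ± 0.137 FPKM. Homing and adhesion receptors were split as well, 9 higher and 10 lower of 24. ITGAL, a chain of the integrin LFA-1, stood at 38.8, 39.3 and 39.0 FPKM in WT and 8.87, 9.36 and 8.91 FPKM in KO2 (-2.0), and CD99 went from 516 ± 19.9 to 205 ± 4.14 FPKM. S1PR1, the receptor that guides T cells out of lymphoid organs, rose from 2.69 ± 0.175 to 7.85 ± 0.505 FPKM, while the chemokine receptor CXCR4 fell from 204 ± 3.78 to 138 ± 1.04 FPKM.

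Genes of sugar breakdown and of the hypoxia response were lower in KO2. Glycolysis turns glucose into pyruvate and lactate, and many of its genes are induced, like the hypoxia genes, by HIF factors that bind the letters ACGTG. Of 31 tested genes of glucose transport and glycolysis, 24 fell and 4 rose (median -0.84). Of 33 hypoxia genes outside glycolysis, 29 fell, 19 of them by at least 2-fold, and 3 rose (median -1.20). ALDOC, the brain form of aldolase, stood at 202, 218 and 198 FPKM in WT and 29.0, 24.9 and 19.8 FPKM in KO2 (log2 fold change -3.03 ± 0.11, adjusted p = 6.7e-09). PFKFB4, which sets the level of a glycolytic activator, stood at 33.4, 34.3 and 29.1 FPKM in WT and 3.29, 3.12 and 2.45 FPKM in KO2, and PGK1, phosphoglycerate kinase, at 937, 922 and 859.7 FPKM in WT and 379, 372 and 355 FPKM in KO2. KO2 replicate 3 was the lowest KO2 library in each of these genes. GPI (228 ± 7.32 to 105 ± 2.98 FPKM), ENO1 (1710.2 ± 54.3 to 814 ± 34.9 FPKM) and GAPDH (4628 ± 161 to 2856 ± 58.3 FPKM), among the most abundant transcripts of the cells, also fell.

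ADM, the vasodilator peptide adrenomedullin, stood at 29.1, 26.4 and 23.1 FPKM in WT and 2.68, 2.02 and 0.944 FPKM in KO2 (log2 fold change -3.28 ± 0.20, adjusted p = 2.3e-07). The spread within KO2 was wide for ADM. BNIP3, which marks mitochondria for removal, stood at 146, 143 and 128 FPKM in WT and 29.0, 28.5 and 20.9 FPKM in KO2, and PDK1, which keeps pyruvate out of mitochondria, at 76.4, 70.5 and 64.2 FPKM in WT and 15.6, 14.8 and 13.6 FPKM in KO2. BHLHE40, a clock and hypoxia repressor, went from 42.0 ± 2.52 to 5.84 ± 1.54 FPKM, the stress protein NDRG1 from 36.2 ± 1.61 to 7.93 ± 0.802 FPKM, and the collagen hydroxylase P4HA1 from 92.7 ± 6.64 to 28.0 ± 2.61 FPKM. EGLN3, the prolyl hydroxylase that targets HIF, went from 3.50 ± 0.328 to 0.741 ± 0.227 FPKM. The tricarboxylic acid cycle leaned the same way but weakly, with 6 of 26 genes higher (23.1%) and 10 lower (38.5%). Over all genes the shares were 38.1% and 26.6%. The median of the list was -0.06, and no member was called with a change of 2-fold. IDH2 fell from 288 ± 9.34 to 197 ± 3.77 FPKM and DLAT, of the pyruvate dehydrogenase complex, rose from 37.0 ± 1.93 to 52.9 ± 0.904 FPKM. Of 79 subunits of oxidative phosphorylation 24.1% were higher and 20.3% lower, beside 38.1% and 26.6% of all genes, and their median of 0.01 turned to -0.03 when libraries were centred on their medians.

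The promoters of ALDOC, BNIP3 and PGK1 are shown as examples that hold ACGTG, chosen for that after the search. The letters, on either strand, are in capitals, and the sequences are RefSeq on GRCh38.p14, on the gene's strand: ALDOC at chr17:28576846-28577145, minus strand; BNIP3 at chr10:131981874-131982173, minus strand; PGK1 at chrX:78103998-78104297, plus strand.
ALDOC: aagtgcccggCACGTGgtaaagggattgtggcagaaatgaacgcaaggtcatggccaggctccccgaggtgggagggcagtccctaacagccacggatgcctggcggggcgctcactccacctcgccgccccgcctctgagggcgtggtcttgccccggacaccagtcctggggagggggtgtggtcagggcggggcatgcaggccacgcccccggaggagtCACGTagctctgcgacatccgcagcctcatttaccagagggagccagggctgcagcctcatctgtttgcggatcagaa
BNIP3: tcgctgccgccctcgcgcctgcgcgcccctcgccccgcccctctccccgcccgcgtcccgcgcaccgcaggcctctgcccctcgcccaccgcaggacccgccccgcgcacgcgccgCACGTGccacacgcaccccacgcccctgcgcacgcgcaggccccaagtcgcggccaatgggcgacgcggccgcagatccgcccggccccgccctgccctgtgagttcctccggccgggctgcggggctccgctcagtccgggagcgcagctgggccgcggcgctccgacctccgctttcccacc
PGK1: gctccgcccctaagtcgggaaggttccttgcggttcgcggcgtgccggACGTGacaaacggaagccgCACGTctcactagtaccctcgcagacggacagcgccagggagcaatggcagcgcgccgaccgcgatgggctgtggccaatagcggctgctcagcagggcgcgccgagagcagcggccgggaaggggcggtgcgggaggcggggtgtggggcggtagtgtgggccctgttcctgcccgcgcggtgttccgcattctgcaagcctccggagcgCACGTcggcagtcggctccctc

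Of the 27 genes with a promoter among the glycolysis and hypoxia genes that fell at least 2-fold, 17 (63.0%) held ACGTG on either strand within the 300 bases. The share was 47.4% over the 57 promoters of all tested genes of these lists, 48.3% for ribosome biogenesis genes called higher, 27.4% over tested genes and 21.6% over all 27305 promoters of the table. A match is a description of letters and not evidence of binding.

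Transcripts of ribosome assembly factors were higher. MYC, a transcription factor that drives their genes, stood at 66.9, 72.6 and 73.8 FPKM in WT and 141, 141 and 151 FPKM in KO2, and MYCN, its paralogue, at 1.75, 1.63 and 1.13 FPKM in WT and 17.2, 15.3 and 15 FPKM in KO2. The KO2 minus KO1 difference of MYC was 0.04 ± 0.05, adjusted p = 0.576, and MYCN lay between WT and KO1 (29.2, 28.9 and 26.2 FPKM; KO2 against KO1 -0.79 ± 0.10, adjusted p = 0.000171). Of 12 tested genes of the MYC network 5 rose and 3 fell; the falls were of the repressors MXD1 (4.31 ± 0.323 to 1.84 ± 0.267 FPKM), MXD3 (9.57 ± 1.40 to 4.78 ± 0.764 FPKM) and MXI1 (15.9 ± 0.0651 to 11.2 ± 0.851 FPKM). Of 75 tested genes of ribosome biogenesis, 68 rose (90.7%, against 38.1% of all genes) and 4 fell, with a median of 0.54. NOP16, a nucleolar protein of the large subunit, stood at 24.2, 25.9 and 22.6 FPKM in WT and 57.3, 57.8 and 59.5 FPKM in KO2 (log2 fold change 1.23 ± 0.06, adjusted p = 4.45e-08). MRTO4, which matures the ribosomal stalk, stood at 17.6, 18.4 and 16.6 FPKM in WT and 40.3, 42.6 and 40.5 FPKM in KO2, and POLR1C, a subunit of RNA polymerases I and III, at 16.9, 15.5 and 16.6 FPKM in WT and 33.5, 32.6 and 35.2 FPKM in KO2. Each KO2 library was above each WT library in these genes. PNO1 (17.4 ± 0.459 to 37.1 ± 1.64 FPKM) and EBNA1BP2 (82.5 ± 2.31 to 154 ± 4.89 FPKM), both assembly factors, and the abundant nucleolar protein NPM1 (872 ± 51.3 to 1176 ± 39.9 FPKM) rose as well.

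Promoters of MRTO4 and of SRM, spermidine synthase, are shown with CACGTG, the E-box that MYC binds, in capitals, chosen as examples after the search. They are RefSeq on GRCh38.p14: MRTO4 at chr1:19251555-19251854, plus strand; SRM at chr1:11059969-11060268, minus strand.
MRTO4: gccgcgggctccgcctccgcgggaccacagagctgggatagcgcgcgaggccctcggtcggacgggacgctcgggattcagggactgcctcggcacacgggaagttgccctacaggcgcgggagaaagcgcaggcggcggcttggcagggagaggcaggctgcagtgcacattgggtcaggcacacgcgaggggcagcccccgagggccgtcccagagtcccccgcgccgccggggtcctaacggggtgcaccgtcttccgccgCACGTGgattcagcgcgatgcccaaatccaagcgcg
SRM: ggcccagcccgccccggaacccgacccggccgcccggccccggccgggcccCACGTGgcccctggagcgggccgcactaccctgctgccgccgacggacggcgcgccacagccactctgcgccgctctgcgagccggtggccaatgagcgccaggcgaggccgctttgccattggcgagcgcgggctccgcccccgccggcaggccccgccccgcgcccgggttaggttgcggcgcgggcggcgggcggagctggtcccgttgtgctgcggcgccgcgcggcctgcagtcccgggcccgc

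Of 58 promoters of ribosome biogenesis genes called higher, 22 (37.9%) held CACGTG, beside 35.9% of the 64 promoters of all tested genes of that list, 10.6% of tested genes and 7.43% of all promoters. CACGTG contains ACGTG, so the counts of the letters overlap. Here too a match is not evidence of binding, and a part of MYC in these rises was not tested.

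Cytosolic ribosomal proteins did not rise with the factors that assemble ribosomes: of 84 tested, 2 rose and 52 fell, by a median of -0.14. After quantile normalization the median was -0.02. RPL3 went from 1274 ± 20.9 to 823 ± 12.4 FPKM and RPL13A from 450.3 ± 33.5 to 278 ± 3.2 FPKM, and near-identical copies of these genes may share their reads. RPL7L1, a paralogue with a role in assembly, rose from 40.4 ± 0.495 to 66.6 ± 0.780 FPKM. Among translation initiation factors 24 of 53 rose and 16 fell; EIF5 went from 34.2 ± 0.486 to 78.7 ± 3.03 FPKM and EIF4G1, the scaffold of cap binding, from 99.5 ± 4.40 to 159 ± 4.54 FPKM. Of 38 aminoacyl-tRNA synthetase genes 23 rose and 7 fell, with FARSA at 68.1 ± 6.74 to 132 ± 2.5 FPKM and DARS at 93.3 ± 5.98 to 52.2 ± 1.71 FPKM.

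Genes of mitochondrial ribosomes and protein import were mostly higher. Of 81 mitochondrial ribosomal proteins 49 rose and 10 fell, and MRPL1 stood at 18, 13.4 and 15.2 FPKM in WT and 44.7, 45.7 and 49.2 FPKM in KO2 (1.53). Of 30 import genes 22 rose and 1 fell, with the channel TOMM40 going from 48.8 ± 4.44 to 76.5 ± 2.02 FPKM and the motor subunit TIMM44 from 18 ± 0.858 to 27.9 ± 1.31 FPKM. HSPD1, the mitochondrial chaperonin, was the import gene that fell, from 707 ± 47.3 to 586 ± 16.0 FPKM.

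Tested amino acid transporters and genes of purine and pyrimidine synthesis were mostly higher, while polyamine and deoxynucleotide genes moved both ways. Among 50 listed amino acid transporters, 23 were tested, 20 rose and 1 fell (median 0.50). SLC38A1, a glutamine carrier, went from 45.2 ± 1.74 to 79.1 ± 1.5 FPKM, SLC7A5, the large neutral amino acid exchanger, from 68.4 ± 5.68 to 101 ± 2.85 FPKM, and the serine carrier SLC1A4 from 13.2 ± 1.24 to 20.6 ± 0.239 FPKM. SLC1A3, a glutamate carrier listed at 0 in the WT libraries, stood at 1.44, 1.31 and 1.35 FPKM in KO2. It passed the filter only through the edited lines, as SLC7A8 did, so the transporter count describes the tested genes and not the family. ASNS, asparagine synthetase, rose from 16.0 ± 1.91 to 28.7 ± 0.399 FPKM, while ATF4, the factor that activates it, was not called (0.06). GLUL, glutamine synthetase, went the opposite way, at 183, 189 and 181 FPKM in WT and 82.8, 82.0 and 77.7 FPKM in KO2 (log2 fold change -1.18 ± 0.04, adjusted p = 2.2e-09). Of 23 genes of purine and pyrimidine synthesis 15 rose and 5 fell, with UMPS (6.24 ± 0.145 to 11.9 ± 0.481 FPKM) and CTPS1 (61.7 ± 1.17 to 90.5 ± 1.94 FPKM) higher. Of 16 polyamine genes 8 rose and 5 fell: ODC1, ornithine decarboxylase, stood at 95.1, 90.5 and 93.6 FPKM in WT and 175, 183 and 187 FPKM in KO2, SRM rose from 60.5 ± 4.18 to 117 ± 1.45 FPKM and MAT2A, which makes the methyl donor, from 81.3 ± 1.16 to 163 ± 6.75 FPKM. Of 17 genes of deoxynucleotide supply 8 rose (47.1%) and 6 fell (35.3%), beside 38.1% and 26.6% of all genes, with a median of 0.12. Thymidine kinase TK1 (18 ± 1.32 to 7.05 ± 1.05 FPKM) and deoxycytidine kinase DCK (96.0 ± 8.99 to 52.7 ± 2.48 FPKM), of the salvage of deoxynucleosides, were among those that fell.

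Protein folding genes were mostly higher. Of 27 cytosolic heat shock genes 19 rose and 4 fell, with HSPA8, the constitutive HSP70, at 533, 514 and 477 FPKM in WT and 901, 929 and 970.3 FPKM in KO2 and its partner DNAJA1 at 174, 175 and 168 FPKM in WT and 315, 331 and 349 FPKM in KO2. Of 24 genes of the endoplasmic reticulum 15 rose and 2 fell. CALR, calreticulin, stood at 341, 348 and 354 FPKM in WT and 979, 995 and 1011 FPKM in KO2 (log2 fold change 1.51 ± 0.03, adjusted p = 1.93e-10), and HSPA5, the chaperone BiP, went from 53.9 ± 2.27 to 112 ± 4.59 FPKM. EDEM1, which hands misfolded glycoproteins to degradation, stood at 119, 112 and 125 FPKM in WT and 31.3, 29.3 and 29.0 FPKM in KO2 (-1.96), opposite to CALR and HSPA5. Proteasome genes had 26 higher and 8 lower calls among 46 tested; the activator subunit PSME1, an interferon-induced gene, fell from 205 ± 5.43 to 139.8 ± 8.49 FPKM and PSMG1, an assembly factor, rose from 63.2 ± 4.2 to 114 ± 2.73 FPKM.

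Cholesterol synthesis moved down. Of 30 tested genes 21 fell and 4 rose (median -0.44). INSIG2, which holds back the sterol sensor, went from 30.2 ± 2.73 to 10.6 ± 0.328 FPKM, FDFT1, squalene synthase, from 579 ± 19.1 to 345 ± 16.9 FPKM, and FDPS from 318 ± 9.07 to 227 ± 11.0 FPKM. Fatty acid genes were split, 10 higher and 12 lower of 28, with the desaturase SCD at 344 ± 7.36 to 256 ± 9.88 FPKM, the elongase ELOVL5 at 308 ± 7.34 to 184 ± 1.04 FPKM and the elongase ELOVL6 at 3.90 ± 0.767 to 9.0 ± 0.855 FPKM.

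**Figure D3:**
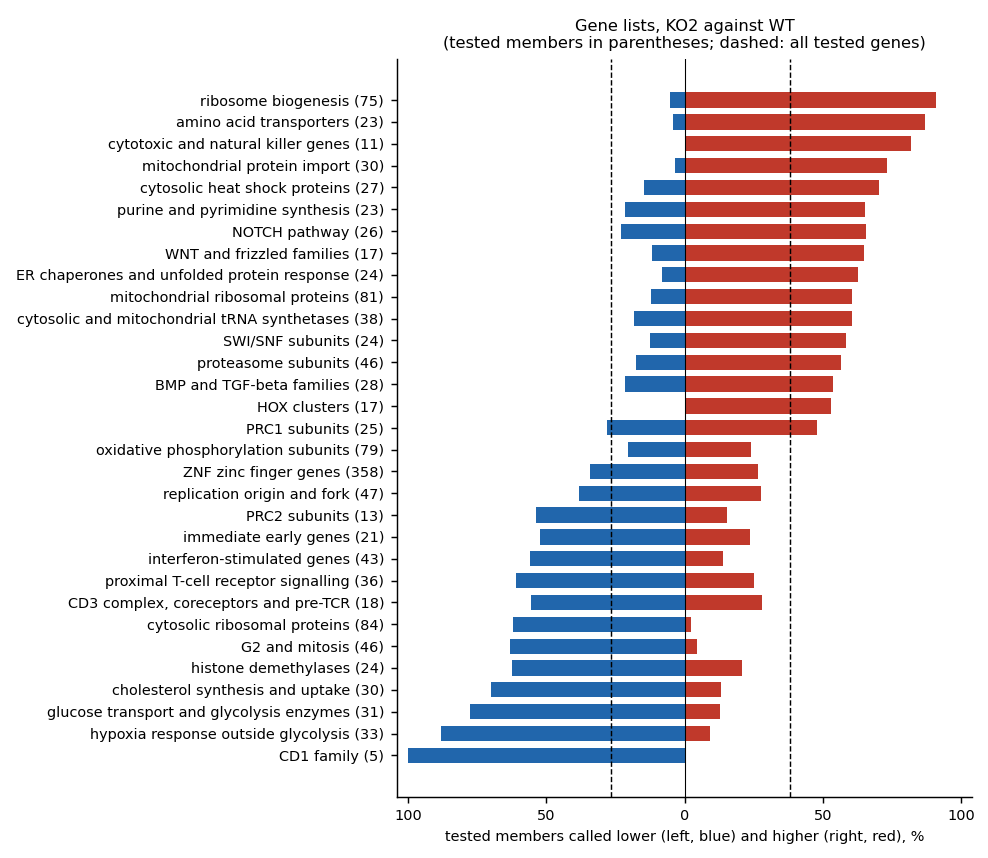
For 31 gene lists, the share of tested members called lower (blue, to the left) and higher (red, to the right) in KO2 against WT, in percent, with dashed lines at the shares over all tested genes (26.6% and 38.1%). Ribosome biogenesis (90.7% higher) and the hypoxia list (87.9% lower) lie far from the dashed lines, and oxidative phosphorylation lies inside them.

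**Figure D4:**
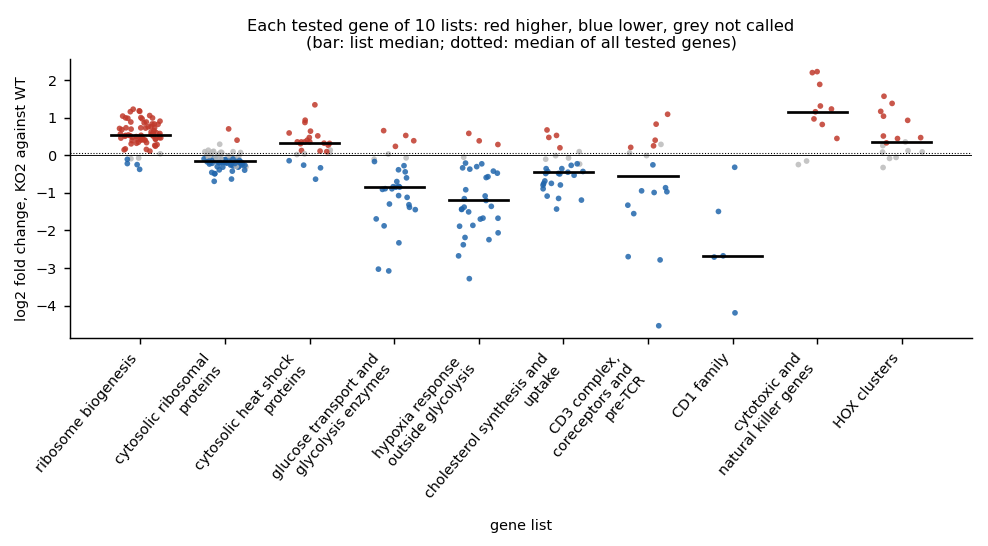
Log2 fold change in KO2 against WT of every tested gene in 10 lists, a point per gene, red called higher, blue called lower, grey not called, with a bar at the list's median and a dotted line at the median of all genes. Ribosome biogenesis genes cluster around 0.54 while cytosolic ribosomal proteins lie around -0.14.

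Within the Polycomb system itself the changes were modest. Among 13 tested PRC2 genes, 7 fell and 2 rose. Among the accessory subunits PHF1 went from 16.0 ± 0.789 to 9.25 ± 0.305 FPKM, MTF2 from 41.7 ± 1.83 to 29.0 ± 0.802 FPKM and PHF19 from 43.7 ± 2.5 to 29.2 ± 1.32 FPKM, and the paralogue EZH1 from 11.8 ± 1.01 to 7.72 ± 0.401 FPKM. PRC1 genes were called higher for 12 of 25 and lower for 7. BMI1, a core subunit, stood at 40.9, 36.5 and 40.3 FPKM in WT and 78.0, 65.0 and 73.2 FPKM in KO2 (log2 fold change 0.86 ± 0.09, adjusted p = 1.2e-05), and CBX2, which reads the Polycomb mark, rose from 10.8 ± 1.34 to 19.6 ± 0.446 FPKM; neither overlapped WT. Histone demethylases had 15 lower and 5 higher calls among 24 tested (median -0.33). KDM3A stood at 57.9, 53.4 and 51.5 FPKM in WT and 20.03, 22 and 19.7 FPKM in KO2, KDM6B, which removes the Polycomb mark, at 16.6, 18 and 18.5 FPKM in WT and 8.33, 8.74 and 8.37 FPKM in KO2, and KDM4B went from 20.2 ± 1.01 to 8.23 ± 0.116 FPKM. MINA, a hydroxylase of ribosomal proteins that shares the demethylase fold, rose from 10.8 ± 0.471 to 25.1 ± 0.598 FPKM. TET1, which oxidizes methylated cytosine, fell from 11.7 ± 0.152 to 5.38 ± 0.203 FPKM, and DNMT1 was not called (0.09, adjusted p = 0.0796). Of 24 SWI/SNF remodelling genes 14 rose and 3 fell, the largest rise being BCL7A (37.8 ± 2.16 to 55.4 ± 0.980 FPKM), while the ATPase SMARCA4 fell from 99.2 ± 4.91 to 76.5 ± 0.540 FPKM. Corepressors moved both ways, with HDAC9 higher (5.09 ± 0.334 to 14.3 ± 0.795 FPKM) and HDAC7 lower (19.6 ± 2.08 to 6.85 ± 0.254 FPKM). Among 9 tested variant histones, 5 rose and 0 fell, H2AFY (macroH2A) going from 209 ± 6.39 to 278 ± 6.43 FPKM; replication-dependent histones, which lack a poly(A) tail, were called in 1 higher and 6 lower of 41 cases.

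Mitotic genes were slightly lower. The list of 46 had 29 lower and 2 higher calls, with a median of -0.20. The checkpoint kinase BUB1 went from 127 ± 11.0 to 70.8 ± 0.303 FPKM, cyclin B2 (CCNB2) from 141 ± 11.6 to 92.3 ± 3.53 FPKM, the kinesin KIF2C from 81.8 ± 2.19 to 55.0 ± 0.740 FPKM and topoisomerase TOP2A from 237 ± 21.2 to 171 ± 2.51 FPKM. Of 47 replication genes 13 rose and 18 fell; CDT1, which loads the helicase, fell from 40.2 ± 2.99 to 20.3 ± 0.810 FPKM and GINS3 rose from 16.0 ± 0.524 to 28.6 ± 0.479 FPKM. CHEK1, which encodes the checkpoint kinase named in the series title, stood at 55.8, 50.4 and 53.1 FPKM in WT and 50.5, 50.1 and 52.3 FPKM in KO2 and was not called (-0.06, adjusted p = 0.331). ATR, its upstream kinase, stood at 13.4, 12.4 and 13.6 FPKM in WT and 13.7, 14.4 and 13.8 FPKM in KO2 and was not called either (0.09, adjusted p = 0.173). The libraries of WT and KO2 overlapped for CHEK1, and for ATR each KO2 library lay just above WT. Among 24 genes of this checkpoint 6 rose, among them TIPIN (25.7 ± 1.59 to 39.4 ± 0.880 FPKM), and 7 fell, among them the phosphatase CDC25C (23.8 ± 1.73 to 12.2 ± 0.313 FPKM), with a median of 0.01, or -0.03 after median centring. Homologous recombination and Fanconi genes were called lower for 17 of 37 and higher for 10, with RMI2 (38.4 ± 2.91 to 14.5 ± 1.69 FPKM) lower. In G1, CCND3 fell from 73.9 ± 3.76 to 51.7 ± 2.27 FPKM as CCND2 came on. BCL2, which blocks apoptosis, stood at 7.06, 6.24 and 7.19 FPKM in WT and 16.0, 15.4 and 15.8 FPKM in KO2 (log2 fold change 1.10 ± 0.06, adjusted p = 8.12e-08). Of 24 p53 target genes 7 rose and 8 fell, CCNG1 going from 131 ± 16.6 to 62.4 ± 2.90 FPKM and AEN from 8.19 ± 1.45 to 19.2 ± 0.888 FPKM.

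Most members of the developmental families did not reach the filter, and some reached it only in the lines where they are high, so counts here describe the tested few and not the family. Of 39 HOX genes 17 were tested, 9 rose and 0 fell: HOXD13 stood at 1.6, 1.40 and 1.29 FPKM in WT and 5.96, 6.77 and 5.98 FPKM in KO2 and HOXD8 went from 0.781 ± 0.262 to 3.62 ± 0.263 FPKM. Among other homeobox, SOX and FOX families 52 of 172 genes were tested, 24 rose and 13 fell, with a median of 0.13 that was 0.03 after quantile normalization. IRX3 stood at 11.3, 11.6 and 12.7 FPKM in WT and 43.9, 44.7 and 46.4 FPKM in KO2 and MEIS2, a HOX cofactor, went from 2.12 ± 0.0481 to 7.21 ± 0.133 FPKM. Of 69 axon guidance genes 31 were tested, 15 rose and 5 fell (median 0.31, and 0.05 after quantile normalization); besides ROBO1 and EPHA3, EPHB2 rose from 0.0608 ± 0.0192 to 2.78 ± 0.163 FPKM, and the ligands EFNA3 (15.2 ± 1.6 to 3.89 ± 0.632 FPKM) and SEMA4A (6.38 ± 0.600 to 1.71 ± 0.223 FPKM) fell. Among cadherins, DSG2, a desmosomal cadherin, rose from 11.7 ± 0.462 to 27.9 ± 1.10 FPKM and CDH4 fell from 20.4 ± 1.10 to 11.9 ± 0.0536 FPKM. Of 17 tested WNT pathway genes 11 rose and 2 fell, with the receptors FZD1 (2.18 ± 0.209 to 6.99 ± 0.406 FPKM) and FZD6 (10.5 ± 0.821 to 18.7 ± 1.11 FPKM) higher. In the BMP and TGF-beta families 15 of 28 rose and 6 fell. The signal transducer SMAD1 rose from 4.87 ± 0.306 to 11.3 ± 1.07 FPKM and the receptor TGFBR2 fell from 15.6 ± 0.769 to 8.32 ± 0.528 FPKM. ID1 and ID3, known targets of SMAD1, rose as given above, and a link between these rises was not tested. All 5 tested collagens and laminins of 56 rose, from low levels. NOTCH genes had 17 higher and 6 lower calls among 26 tested; the ligand JAG1 stood at 2.02, 2.41 and 2.11 FPKM in WT and 13.7, 13.8 and 13.9 FPKM in KO2, above KO1 too (9.08, 8.36 and 9.54 FPKM), DTX1 rose from 15.8 ± 1.04 to 44.3 ± 1.52 FPKM, and RBPJ, the DNA-binding partner of NOTCH, fell from 55.1 ± 3.16 to 34.9 ± 1.88 FPKM.

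Immediate early genes, which answer growth signals within minutes, were more often lower, 11 of 21 against 5 higher. EGR1 stood at 5.58, 5.66 and 5.45 FPKM in WT and 0.485, 0.105 and 0.282 FPKM in KO2, and ETV5 (4.95 ± 0.754 to 0.867 ± 0.225 FPKM) and KLF10 (16.7 ± 0.529 to 6.99 ± 0.810 FPKM) fell. Among 43 tested interferon-stimulated genes, 24 fell and 6 rose: IFI16, a DNA sensor, stood at 221, 200.1 and 199.5 FPKM in WT and 118, 112 and 117 FPKM in KO2, SP110 went from 26.6 ± 0.815 to 14.8 ± 0.444 FPKM, and EPSTI1 rose from 0.914 ± 0.221 to 5.62 ± 0.327 FPKM. Of 24 NF-kB and TNF receptor genes 9 rose and 9 fell, TNFAIP3, the feedback inhibitor A20, from 28.9 ± 1.47 to 10.3 ± 0.772 FPKM and the ligand gene TNFSF10 (TRAIL) from 3.13 ± 0.505 to 12.4 ± 0.287 FPKM. HLA-B rose from 29.2 ± 0.574 to 67.3 ± 2.19 FPKM and HLA-E fell from 29.4 ± 1.82 to 13.9 ± 0.416 FPKM, while B2M, their shared light chain, was not called (-0.01). These HLA genes are near copies of each other, so their reads may be split.

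Of the larger families, ZNF zinc finger genes were called lower in 122 and higher in 95 of 358 cases, with ZNF85 going from 6.90 ± 0.620 to 1.53 ± 0.112 FPKM and ZNF521 from 2.71 ± 0.247 to 12.3 ± 0.857 FPKM. Long intergenic and antisense RNAs were called lower for 152 of 445 and higher for 89, 3489 being in the table; MIR210HG, host of the hypoxia-induced miR-210, went from 10.5 ± 0.545 to 1.45 ± 0.474 FPKM. The strand of counting is not given, so antisense values may hold reads of the opposite gene. Of 35 listed MAGE genes 9 were tested and 8 fell, among them the widely expressed MAGED1 (109 ± 0.991 to 73.7 ± 3.48 FPKM) and MAGED2 (28.8 ± 0.484 to 21.0 ± 0.925 FPKM). Most MAGE genes lie on the X chromosome, where 48.7% of placed genes fell; its part in the count was not tested. MAGEA12 (2.37, 2.02 and 2.14 FPKM in WT) and MAGEA3 (1.73, 1.62 and 1.20 FPKM in WT) were listed at 0 in all KO2 libraries; these MAGEA genes, silent in most adult tissues outside the testis, are near-identical copies. Lysosomal genes had 21 higher and 9 lower calls among 44 tested, led by CTSG, a serine protease of myeloid granules (64.5 ± 4.12 to 207 ± 7.47 FPKM). Zinc transporters and metallothioneins rose in 11 of 21 cases, with SLC39A11 at 7.87, 9.24 and 8.81 FPKM in WT and 31, 31.6 and 31 FPKM in KO2. Within the cytoskeleton TMSB4X, an actin-binding peptide, fell from 1611 ± 23.3 to 824 ± 50.2 FPKM as ACTB rose from 2833 ± 81.9 to 3757 ± 16.3 FPKM, and KIF21A, a kinesin of neurons, rose from 0.308 ± 0.0711 to 6.15 ± 0.417 FPKM.

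The contrast of KO2 with KO1 shows where KO2 stood apart from the other edited line. It called 30.6% of the 11737 genes, 18.3% higher and 12.4% lower in KO2. Of 710 genes changed at least 2-fold against WT, 356 also differed from KO1. Genes that differed from both WT and KO1 in the same direction, with the 3 KO2 libraries outside the range of the other 6, numbered 849 higher (7.23%) and 442 lower (3.77%), and 13 and 10 of these did so by at least 2-fold in both contrasts. ALDH1B1, a mitochondrial aldehyde dehydrogenase, stood at 0.242, 0.197 and 0.225 FPKM in WT and 5.66, 5.39 and 5.46 FPKM in KO2, and at 0.0523, 0 and 0.108 FPKM in KO1. EOMES stood at 1.07, 0.875 and 0.826 FPKM in KO1, within its WT range, and GZMA at 13.6, 14.8 and 16.9, between WT and KO2. RGS18, a regulator of G-protein signalling in blood cells, went from 0.351 ± 0.0359 to 8.24 ± 0.476 FPKM, RAB27B, of granule release, from 0.223 ± 0.0459 to 3.28 ± 0.0751 FPKM, KCNMB1, a potassium channel subunit, from 1.29 ± 0.162 to 5.64 ± 0.143 FPKM, and DDN, dendrin, from 0.130 ± 0.0112 to 1.84 ± 0.285 FPKM.

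CD2, an adhesion receptor of T cells, stood at 35.8, 35 and 36.6 FPKM in WT and 3.54, 4.50 and 5.11 FPKM in KO2, and at 87.2, 90.1 and 94.4 FPKM in KO1 (KO2 against KO1 -4.10 ± 0.09, adjusted p = 8.77e-10). MAGEA4 stood at 6.92, 6.75 and 6.91 FPKM in WT and 0, 0.0502 and 0.0542 FPKM in KO2, and at 20.4, 23.4 and 21.8 in KO1. MAGEA1 stood at 1.01, 1.06 and 1.37 FPKM in WT and 0, 0 and 0.0544 FPKM in KO2, and at 15.6, 16.9 and 15.1 in KO1. In these 3 genes KO2 was below WT in every library and KO1 above it. GPA33, a surface antigen, showed the same split, at 5.73, 6.34 and 6.11 FPKM in WT and 2.03, 1.80 and 2.07 FPKM in KO2 and 17.5, 18.3 and 17.5 in KO1. B3GNT2, which extends sugar chains, went from 56.2 ± 4.32 to 18.1 ± 1.15 FPKM with KO1 at 53.6, 60.02 and 64.8, and DENND5A from 20.4 ± 0.460 to 8.74 ± 0.794 FPKM with KO1 at 18.6, 19.1 and 18.6. GLUL, at 237, 241 and 239.9 FPKM in KO1, was lowest in KO2. C2orf40 went from 2.90 ± 0.465 to 0.310 ± 0.282 FPKM.

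Many genes that fell in KO2 lie on the long arm of chromosome 2. Of 8725 genes with a mean of at least 5 FPKM, 8652 were placed in RefSeq order on GRCh38.p14, used for order only. Chromosome 2 had a median log2 fold change of -0.10 over 566 genes, with 42.9% lower, against 0.05 over all placed genes. The 266 genes from BUB1 to the last placed gene, DTYMK, had a median of -0.29, with 175 called lower (65.8%) and 34 higher (12.8%). The median shift from the WT mean over these genes was -0.29, -0.29 and -0.27 in the KO2 libraries, 0.05, 0.06 and 0.11 in the KO1 libraries, and within -0.02 to 0.04 in the WT libraries. Against KO1 the median was -0.36, with 216 lower and 3 higher. The stretch holds 3.07% of placed genes and 145 of the 442 genes (32.8%) that were lower in KO2 than in both other lines. Its most abundant genes were RPL37A (2778 ± 195 to 1978 ± 57.0 FPKM), PTMA, prothymosin alpha (1736 ± 124 to 1225 ± 44.7 FPKM), and nucleolin (NCL), which rose against WT (639 ± 2.17 to 801 ± 18.4 FPKM) but was lower than in KO1 (-0.47). Genes of the lists above lie in it, among them BUB1, CD28, CXCR4, PDK1, INSIG2, IDH1, DARS, HSPD1, SP110, SP100, MCM6, ORC2 and BARD1. For these, a change in KO2 and the position on chromosome 2 cannot be told apart here.

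Just before BUB1, the 31 genes from UNC50 to LINC00116 were shifted up, with a median of 0.55, 24 higher and 2 lower, and a median of 0.35 against KO1. Among them, EIF5B rose from 88.9 ± 2.59 to 137 ± 2.61 FPKM and MAP4K4 from 112 ± 2.58 to 149 ± 1.12 FPKM, while RPL31 was not called (0.08). The 269 genes before UNC50 had a median of 0.06, near that of all genes. The boundaries of these runs were chosen after the values were seen, so they are described without a test. On the X chromosome 131 of 269 genes fell (48.7%) and 59 rose, with a median of -0.17; against KO1 the median was 0.28, and the KO1 libraries themselves were shifted by -0.43 to -0.41 from WT. PGK1, RPS4X (1659 ± 85.2 to 1263 ± 19.9 FPKM) and TMSB4X lie there.

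**Figure D5:**
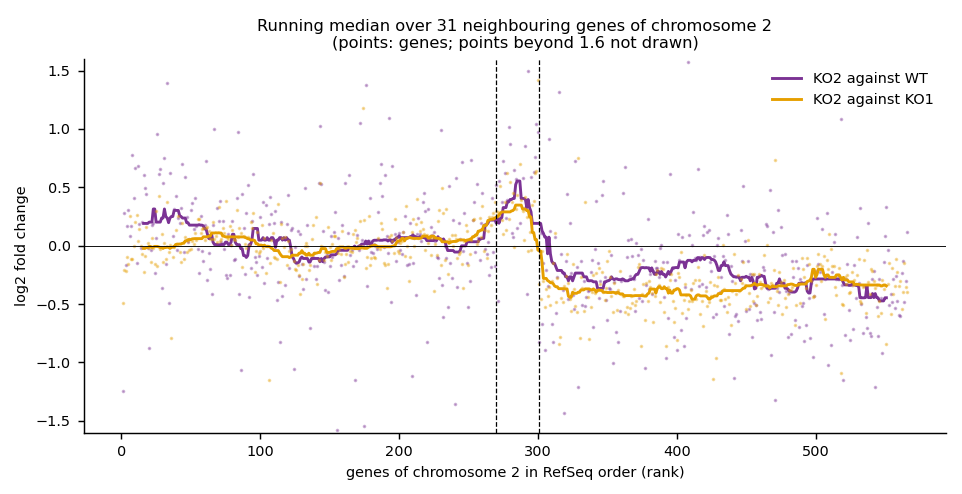
Log2 fold changes along chromosome 2, with genes in RefSeq order by rank on the horizontal axis, points for genes and lines for the running median over 31 genes, purple for KO2 against WT and orange for KO2 against KO1. Dashed lines mark UNC50 and the step before BUB1, soon after which both running medians fall under 0 and stay there to the end of the chromosome.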

How the data were processed

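Polyadenylated RNA of 9 Jurkat libraries was sequenced, and the authors deposited 1 table of FPKM values with a column per library. The submitters' processing notes list STAR 2.5.0b, Cufflinks 2.2.1, bedtools 2.7.0 and hg19; the annotation, the strand setting and any further scaling were not given in the sources used here. Depth is unknown, and the FPKM were tested on a log scale without a count model. Of 26228 rows, 38 with text in place of values were left out; 18 tested names turned into dates by a spreadsheet are not named. Genes with FPKM of at least 1 in 3 of 9 libraries were fitted as log2(FPKM + 1) in limma 3.58.1 (R 4.3.3), with a mean-variance trend and 1 mean per group, over all 9 libraries, after a test on simulated data. Named genes are EZH2 and genes of prior interest; the 15 largest called rises and falls without overlap of WT and KO2, small RNA genes left out; the 10 largest each way that differ from both lines; up to 12 genes switched on or off (under 1 FPKM against at least 2 FPKM in every library); per list, up to 6 called genes of smallest p and the 2 most abundant; and the 3 most abundant per chromosome segment. Some genes that the rule selects are not reported here. Members, lists and tests were chosen with earlier results of these data known. Alternatives are given in the closing section.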

Additional observations from a re-analysis of the deposited data

Results flagged for a closer look

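The change against the same WT libraries differed between the 2 edited lines for 264 of the 555 named genes tested, 132 higher and 132 lower in KO2, by the test of KO2 against KO1 (limma, adjusted p under 0.05). Over all 11737 tested genes, 3596 (30.6%) differed, 18.3% higher and 12.4% lower. Some named genes were chosen for differing from KO1, so the count in part restates that choice. Values are given here for 19 genes chosen for standing apart from both WT and KO1, so that their number only restates that choice. No group has more than 3 libraries, so single libraries were not tested as outliers. On the log2 scale KO2 was above KO1 by 2.63 for ALDH1B1, 1.74 for EOMES, 1.53 for RGS18, 1.45 for PROSER2-AS1, 1.40 for GZMA, 1.28 for GZMK, 1.26 for DDN, 1.22 for RAB27B, 1.18 for PLEK and 1.14 for KCNMB1. The difference of KO2 from KO1 was -4.46 for MAGEA4, -4.10 for CD2, -4.05 for MAGEA1, -2.66 for GPA33, -1.66 for B3GNT2, -1.55 for GLUL, -1.5 for C2orf40, -1.11 for EGLN3 and -1.03 for DENND5A.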

How the results depend on the processing

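The 7596 genes called became 7339 with a replicate block, and the counts of higher (4341) and lower (2998) moved as little. The block took the calls against KO1 from 3596 to 3135 and the genes apart from both lines from 1291 to 1100. The main fit did not pair the cultures by replicate number. Deviations of WT and KO2 libraries with the same number correlated at 0.32, 0.03 and 0.23. Those of WT replicate 1 with KO2 replicate 3, and of WT replicate 3 with KO2 replicate 1, correlated at -0.26 and -0.27. WT replicate 2 correlated best with KO2 replicate 3, at 0.08. An effect shared by libraries of the same number was thus not excluded. Leaving out 1 library in turn gave 6869 to 7741 calls, 4093 to 4551 higher, 2776 to 3190 lower, 456 to 483 higher and 241 to 265 lower by 2-fold, 2643 to 4081 against KO1 and 924 to 1379 apart from both. A pseudocount of 0.1 gave 831 higher and 401 lower by 2-fold, and a filter at 5 FPKM left 280 higher by 2-fold, since fewer genes were tested. With adjusted p under 0.01, 2100 genes differed from KO1 and 663 from both lines. With a minimum fold of 1.5, 2243 genes were called, 1410 higher and 833 lower, 521 against KO1 and 96 apart from both. Quantile normalization moved the median of all genes from 0.06 to 0.002 and the share of calls that were higher from 58.9% to 50.8%; median centring gave 52.9%. Of 555 named genes, 211 changed their call under at least 1 setting, or 36 with the minimum fold of 1.5 left aside, and LDHB (0.085, from an uncalled -0.07) and RPL19 (0.081, from -0.16) turned their direction, under quantile normalization; the cause was not tested. Quantile normalization gave 321 higher and 319 lower by 2-fold. Medians that crossed 0 included those of oxidative phosphorylation (-0.0005 and -0.030 with quantile normalization and median centring), mitochondrial carriers (-0.030 and -0.017), cytokine receptors (-0.088), integrins (-0.0017) and actin and myosin genes (-0.0048) under quantile normalization, the ATR and CHK1 checkpoint (-0.021 and -0.030) under both, and T-cell markers (-0.027) under centring. With the filter at 5 FPKM so did cytokine receptors (-0.068), HLA class I (-0.0075) and integrins (-0.17), with no filter homing receptors (0.016), cadherins (0), long RNAs (0) and cancer-testis genes (0.0005), and with 1 library left out the MYC network (-0.0004 to 0.104) and reference genes (-0.0491 to 0.0076). Without the genes from BUB1 to DTYMK, an alternative chosen after seeing the data, 7387 genes were called, 2945 of them lower, and 1146 stood apart from both lines. FPKM hold no depth, so counting error could not be given.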
